A study of Neurospora crassa with 10 samples.

Results

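Of the 2433 genes in the lowest expression list of wild-type Neurospora crassa, 401 lay between a pair of well-expressed genes. They are weakly expressed genes whose next gene on either side is well expressed. They were selected on expression list alone, by pooling the 4 deposited gene lists (lowest 25%, 25-50%, 50-75% and highest 25% by wild-type expression, 9729 genes), sorting them along each linkage group and keeping every lowest-list gene whose previous and next gene both came from the 50-75% or the highest list. The word "members" stands for these 401 genes below, and "well expressed" for the 4865 genes of those 2 lists. The lists hold positions without expression values, so membership and the lists of the neighbours are what the choice used. Length, gaps, overlap, position and distance to heterochromatin were not used by it. The middle lists are taken as their names read, which the labels do not explain further.

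The study followed where newly made histone H3 enters chromatin, using ChIP-seq of a FLAG-tagged H3 in germinated conidia. The labels give 10 libraries in 5 groups of 2: deletions of dim-2 (marked with hph), dim-5 (bar), hda-1 (hph) and hpo (hph), and the wild type. All 5 groups carry Pvvd::hH3-3xFLAG::his-3+, a tagged histone under the promoter of the light-induced gene vvd. The wild type, the dim-2 deletion and the hda-1 deletion are mat a, and the mating type of the dim-5 and hpo deletions is given as "mat ?". Every culture was grown for 18 h at 32 °C in darkness, held for 3 h in 100 mM hydroxyurea to stop DNA replication, lit for 2 min at 465 nm and crosslinked in 0.5% formaldehyde. Genotypes were not compared here, since no values of single libraries were analysed, and the depth is unknown.

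H3K9me3, trimethylation of lysine 9 on histone H3, marks constitutive heterochromatin, which in Neurospora covers repeat-rich sequence at centromeres, at chromosome ends and in scattered blocks along the arms. Genes in a fungal genome are densely packed, and many neighbours lie closer together than a gene is long. A weakly expressed gene between well-expressed ones shares its flanks with transcribed genes. The deposited wild-type list holds 346 H3K9me3 domains on the 7 linkage groups, against which the position of the members was measured.

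The members made up 16.5% of the lowest list (Wilson 95% interval 15.1 to 18.0). Over all 9729 genes the share between 2 well-expressed neighbours was 27.5%, with 28.1%, 30.6% and 34.6% for the 25-50%, 50-75% and highest lists. Lowest-list genes with 1 well-expressed neighbour numbered 945, and those with none 1087. These shares follow from the lists that chose the members and are a description without a test. Both neighbours came from the highest list for 104 members and from the 50-75% list for 91, and 206 members had 1 of each. The 802 neighbour positions were held by 778 different genes, or 16.0% of all well-expressed genes, because 24 pairs of members shared a neighbour.

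**Figure D1:**
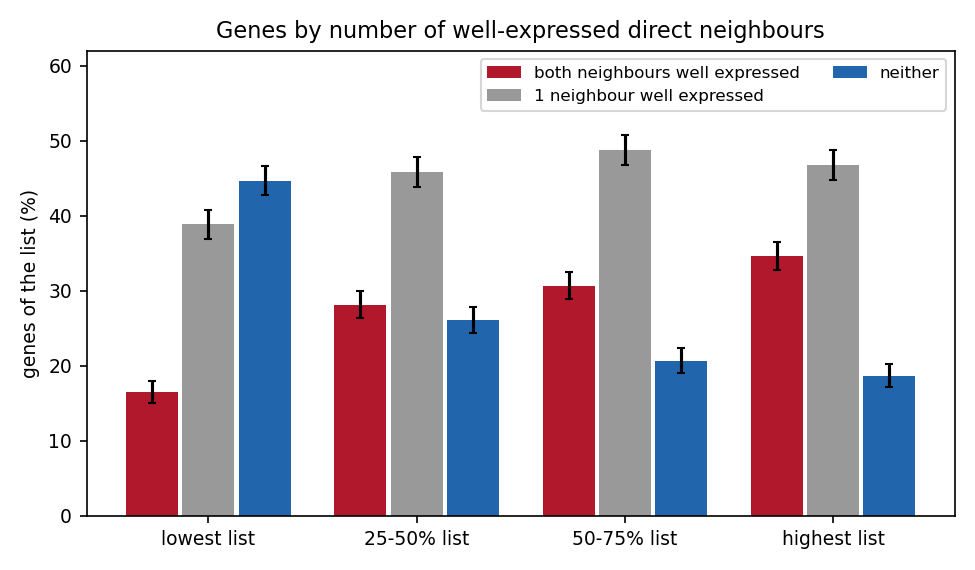
Share of the genes of each expression list (y axis, %) whose direct neighbours are both, 1 or neither well expressed, with Wilson 95% intervals; the lists run from lowest to highest on the x axis. The members are the red bar of the lowest list at 16.5%, and 34.6% of the highest list lay between well-expressed neighbours.

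The intervals below cover counting error only and treat genes as independent. Neighbouring genes are alike, so these intervals can be too narrow, and no p-value was computed. Each list is 1 deposited ranking without values per replicate, and the number of libraries behind it is not known here.

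At the boundary of the rule, the order of rows within a list was read as falling expression. The last 440 rows of the lowest list ascend by locus tag without a break, as rows with equal values would, and runs of 129 and 101 such rows precede them. No such run exceeded 7 rows in the other 3 lists, and the housekeeping genes gpd-1 and tef-1 stand in rows 2 and 13 of the highest list. On this reading the member with the weakest well-expressed neighbour was NCU17107 on VI, whose neighbour stands in row 2414 of the 50-75% list, followed by NCU02782 (row 2412) and NCU04261 (row 2409). Just outside were NCU01802, NCU01270 and NCU11280, whose weaker neighbours stand in rows 1, 3 and 4 of the 25-50% list. The members themselves were spread through the lowest list. Of them, 65 (16.2%, 12.9 to 20.1) fell in the block of 440 rows, against 375 of the 2032 other lowest-list genes (18.5%, 16.8 to 20.2). The median row was 1123 for members and 1238.5 for the others.

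Beyond the 2 neighbours that the rule fixed, the surroundings of the members were mixed. At the second gene on either side, 56.1% of genes around members were well expressed (52.6 to 59.5, n = 801), against 36.4% around other lowest-list genes (34.9 to 37.9, n = 4052). At the fourth gene the shares were 53.1% and 40.5%. Around genes of the 25-50% list that also lay between well-expressed neighbours, the share was 57.5% at the second gene and 54.0% at the fourth. The members' intervals overlapped those of the 25-50% genes at the second gene (54.8 to 60.1). Lowest-list genes made up 18.9% of second genes around members and 41.6% around other lowest-list genes. Of all 9729 genes, 4865 were well expressed and 2433 were in the lowest list. The other lowest-list genes are by definition those with fewer than 2 well-expressed neighbours, which bears on their surroundings too.

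**Figure D2:**
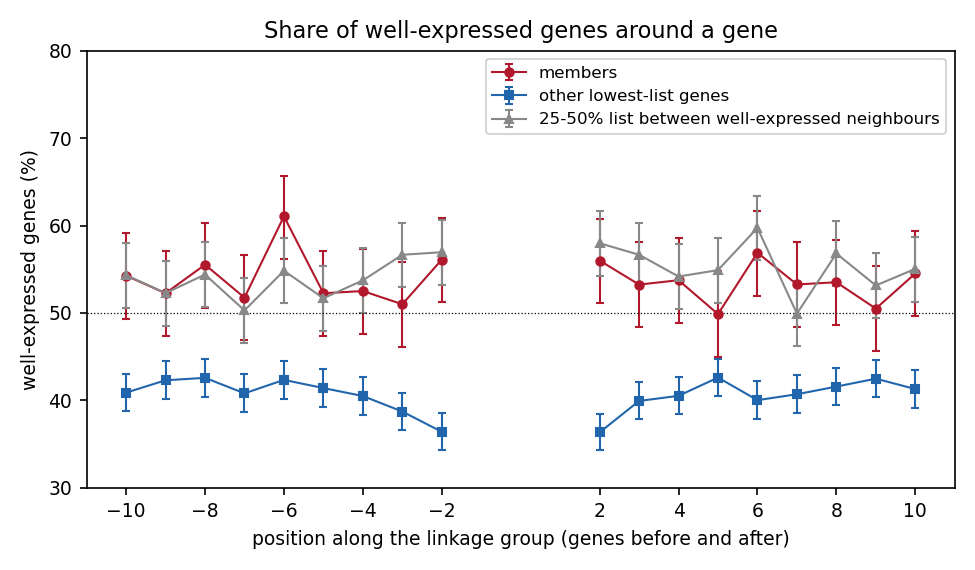
Share of well-expressed genes (y axis, %) at positions from 10 genes before to 10 genes after a gene (x axis, in genes) for members, for other lowest-list genes and for 25-50% list genes between well-expressed neighbours, with Wilson 95% intervals; the directly neighbouring positions, which the rule fixed, are left out and the dotted line marks 50%. The members run with the 25-50% genes at 56.1% and 57.5% at the second gene, and the other lowest-list genes lie at 36.4%.

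The stretch of well-expressed genes around a member was usually short, as around genes of the other lists between well-expressed neighbours. For 74 members a weaker gene followed directly after 1 well-expressed gene on each side. The median number of consecutive well-expressed genes on both sides together was 4 (interquartile range 3 to 6), including the 2 that the rule fixed. It was also 4 (3 to 6) in the 25-50%, 50-75% and highest lists for genes between well-expressed neighbours. The longest alternation of members and well-expressed genes held 3 members. One of the 2 alternations of that length lay on III with NCU10906, NCU16686 and NCU08975, the first of them in an H3K9me3 domain.

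The member with the longest such stretch, NCU02436 on VII (2489515 to 2489916), lay between the core histone genes hH2A and hH2B. Its 402 bp were flanked by 14 well-expressed genes before and 16 after, 30 in all, and 3 members shared the next longest stretch, of 16. The gap to hH2A was 1075 bp and that to hH2B 691 bp. The histone genes stood in rows 271 and 223 of the highest list, and NCU02436 in row 2074 of the lowest list, inside the block of 440 rows. It lay 2.19 kb from a domain, whose sequence reached 235 bp into hH2B and none of which reached NCU02436. On the other side, the longest domain of VII, of 349.2 kb, ended 3492 bp from hH2A. The genes of a stretch were counted by order and not by closeness, whatever domain or gap lay between them. The 3 members with a stretch of 16 were NCU16645 on III (1875743 to 1877036), NCU04123 on V (4920230 to 4920752) and NCU03940 on VI (2444292 to 2445836).

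Several further members lay beside genes that the study's design touches, and these were chosen after their values were seen. NCU03140 on I (4700363 to 4700743), of 381 bp, lay between his-3, a histidine synthesis gene and the locus named in the reporter genotype, and lpl. It lay 2477 bp from his-3 and shared 71 bp with lpl. Its row was 2101 of the lowest list, against rows 434 and 1386 of the highest list for his-3 and lpl. NCU00143 on III (2777897 to 2778568) lay completely inside NCU00144, a highest-list gene, and its next gene was hH3v of the 50-75% list at 4445 bp. Most of that distance lay within NCU00144, which ended at 2782540, while hH3v started at 2783014. NCU16562 lay 6005 bp from hH4-1, a histone H4 gene, and NCU06604 lay 2661 bp from dim-8. All of these neighbours except hH3v and dim-8 were in the highest list.

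In all, 16 members lay between 2 neighbours with gene symbols. NCU01196 on V (3204893 to 3208134) lay 1797 bp from am, the glutamate dehydrogenase gene, and 1302 bp from gul-1. NCU07390 on I (6107558 to 6108341) lay 9013 bp from adv-1, a transcription factor gene, and 3073 bp from ham-9, both known from hyphal fusion. NCU02251 on VII (3178215 to 3178800) lay 379 bp from emp-6 and 169 bp from oli. These 6 neighbours were all in the highest list. Of the 778 neighbouring genes, 19.9% had a symbol and 51.7% were in the highest list, against 17.1% and 49.7% of the 4087 other well-expressed genes.

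Few members had a symbol of their own, and the 9 that did include enzymes, kinases and a silencing gene. Symbols were held by 2.24% of members (1.19 to 4.21), against 2.95% of other lowest-list genes (2.30 to 3.78) and 11.5% of all genes. The member sad-2 on V (5529766 to 5533137) is a gene of meiotic silencing, in which unpaired DNA is silenced during the sexual cycle. It stood in row 2139, in the block of 440 rows, 2096 bp from NCU04293 of the 50-75% list and 728 bp from NCU04295 of the highest list, and 108.8 kb from the nearest domain. The glycoside hydrolase gene gh6-1 on VI (2252836 to 2254256) stood in row 2130 of the same block, 777 and 1683 bp from its neighbours and 963 bp from a domain. The other hydrolase gene, gh76-1 on I (1619717 to 1622826), stood in row 1907 and lay 68.7 kb from a domain.

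The remaining 6 with symbols stood higher in the lowest list, in rows 356 to 885. The trehalase gene tre-1 on I (6632519 to 6635173, row 356) shared 78 bp with ngf-1 and lay 1683 bp from thr-5. The kinase gene stk-21 on I (5033679 to 5036626, row 885) shared 213 bp with its next gene and lay 516 bp from fkr-4. The chitin synthase gene chs-6 on IV (5526379 to 5529412, row 488) lay 1416 bp from the heat shock gene hsp88. The phosphate transporter gene pho-5 on IV (2396703 to 2398930) lay 1401 and 1456 bp from its neighbours, and prk-9 on V (4812741 to 4815929) 3044 and 1557 bp. The polyketide synthase gene pks-2 on VI (4085380 to 4092690) was the longest of all members.

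Of 10 lists of genes by symbol, 2 held members. Of the 10 genes found for meiotic silencing and quelling, 4 were in the lowest list and 1 of these was a member, sad-2. Of 80 glycoside hydrolase genes, 24 were in the lowest list and 2 were members, gh6-1 and gh76-1. Of 13 genes of sexual development and mating, 6 were in the lowest list and 0 were members. Meiosis and recombination had 1 of 5 genes in the lowest list, conidiation and clock 2 of 16, and neither had a member. The lists of transcription factors, ribosomal proteins, amino acid synthesis, cytochrome P450 and heterokaryon incompatibility had 0 genes in the lowest list. With 16.5% of the lowest list being members, counts of this size carry no result about a list.

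Members had a median length close to that of the rest of the lowest list. Their median interval was 1215 bp (interquartile range 774 to 1868, 95% interval of the median 1110 to 1326), against 1224 bp in other lowest-list genes (1179 to 1266). Genes of the other lists between well-expressed neighbours were longer, with medians of 2059, 2434 and 2597 bp for the 25-50%, 50-75% and highest lists. The longest members were pks-2 (7311 bp), NCU07894 on IV (6060 bp) and NCU03974 on VI (5576 bp). The shortest were NCU02465 on I (234 bp), NCU04214 on V (273 bp) and NCU08585 on I (303 bp). Locus tags of NCU10000 and above were held by 86 members (21.4%, 17.7 to 25.7), by 17.0% of other lowest-list genes (15.5 to 18.7) and by 9.81% of all genes.

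The gaps around members were wide for genes between well-expressed neighbours. Measured per side, a member lay a median of 1062.5 bp from a well-expressed neighbour (interquartile range 326 to 2358, n = 802 sides). Other lowest-list genes lay 971 bp from a well-expressed neighbour (343 to 2066, n = 945) and 1116.5 bp from a weaker one (592 to 2132, n = 3112). The gap between a gene of another list and a well-expressed neighbour, where both neighbours were well expressed, had medians of 377, 396 and 531.5 bp for the 25-50%, 50-75% and highest lists. The 95% interval of the members' median, 927 to 1216 bp, lay above all 3 of these medians and held the value of 971 bp. A tRNA gene lay in a gap of 32 members (7.98%), against 7.48% of other lowest-list genes and 6.7% of all genes.

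Taken per gene, the smaller of a member's 2 gaps was narrower than elsewhere in the lowest list. Its median was 422 bp in members (334 to 533) and 648 bp in other lowest-list genes (611 to 680). In genes with no overlap the medians were 642 bp (543 to 741, n = 321) and 712 bp (683 to 747, n = 1846), intervals that overlap. Among genes with locus tags below NCU10000 the medians were 489 bp in the 315 members and 680 bp in the 1686 others. With the lowest list divided into 4 classes of length, the smaller gap was narrower in members in all 4, with 566 against 736 bp in the shortest class and 351.5 against 582.5 bp in the longest.

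Members more often shared sequence with a neighbour than other lowest-list genes did, and less often than genes of the other lists between well-expressed neighbours. At least 1 bp was shared by 80 members (20.0%, 16.3 to 24.1) and by 179 other lowest-list genes (8.81%, 7.65 to 10.1), where 22.8% of all genes shared sequence. Among genes of the 25-50%, 50-75% and highest lists between well-expressed neighbours the shares were 31.4%, 33.3% and 29.2%. Per side, a member overlapped 10.3% of its well-expressed neighbours (8.43 to 12.6), and other lowest-list genes overlapped 8.89% of theirs (7.24 to 10.9) and 3.15% of weaker neighbours (2.59 to 3.82). Set against the same kind of neighbour, the intervals of members and other lowest-list genes therefore overlapped. Overlap was found in 22 of the 86 members with locus tags of NCU10000 and above and in 58 of the other 315.

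**Figure D3:**
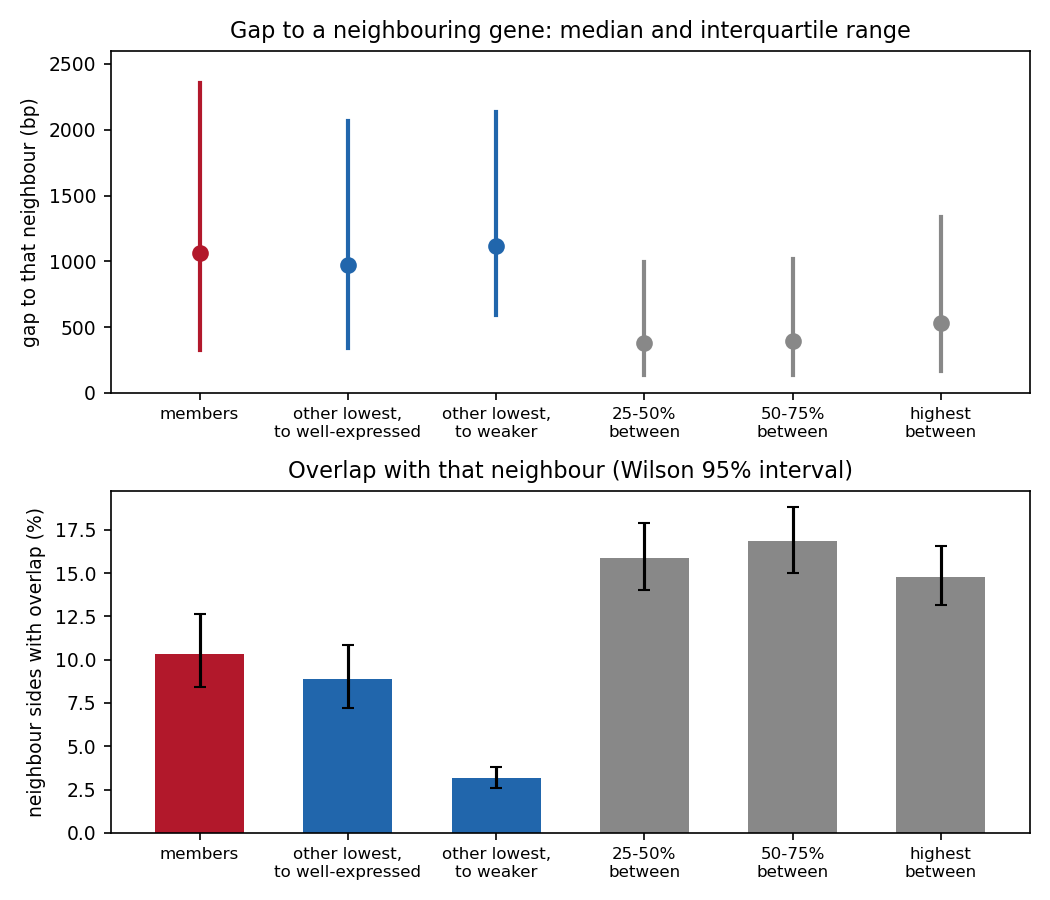
Gap to a neighbouring gene (upper panel, bp, median with interquartile range) and share of neighbour sides that overlap (lower panel, %, Wilson 95% interval) for members, for other lowest-list genes towards well-expressed and towards weaker neighbours, and for genes of the other lists between well-expressed neighbours. The gap of members (1062.5 bp) is near those of other lowest-list genes and above the 377 to 531.5 bp of the other lists, and the overlap share of members is 10.3%, against 3.15% towards weaker neighbours.

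Among the overlapping members, 20 lay completely inside a neighbour. That is 4.99% of members (3.25 to 7.58), against 1.67% of other lowest-list genes (1.20 to 2.33) and 0.719% of all genes, and among genes between well-expressed neighbours it was 0 of 684 in the 25-50% list (up to 0.558% by the Wilson interval), 3 of 745 in the 50-75% list and 3 of 842 in the highest list. Per side the shares were 2.49% of members' well-expressed neighbours (1.62 to 3.82) and 1.80% of those of other lowest-list genes (1.13 to 2.86). None of the 108 members of 1830 bp or more lay inside a neighbour. Genes of the 25-50% list between well-expressed neighbours had a median of 2059 bp, so these counts compare genes of unlike length. The nested members were 387 to 1593 bp long, and the genes around them 1955 to 6939 bp, 13 of the highest and 7 of the 50-75% list. They included NCU16569 inside ff-1 on II, NCU02884 inside the kinase gene stk-20 and NCU16421 inside ngf-1 on I. Their rows ran from 80 to 2392, and 2 were in the block of 440 rows. None touched an H3K9me3 domain, and the nearest lay 6.10 kb away.

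In the other 60 overlapping members the shared sequence was 6 to 2498 bp long, with a median of 261 bp. Over all 80 overlapping members, the largest overlaps were those of NCU04226 on V (2498 of 3209 bp), NCU07894 on IV (1905 of 6060 bp) and NCU01123 on V, whose 1593 bp lay completely inside NCU01122. The sources used here do not say how reads in shared sequence were assigned or whether strand was used, so the list of an overlapping gene is uncertain.

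Members lay farther from the ends of the linkage groups than other lowest-list genes did. Their median distance from the nearer end was 1622 kb (1516 to 1701), against 878 kb in other lowest-list genes (814 to 923). Over all genes the median was 1492 kb (1465 to 1515), much nearer to that of the members. Genes of the 25-50%, 50-75% and highest lists between well-expressed neighbours had medians of 1614, 1861 and 1800 kb. Within 200 kb of an end lay 22 members (5.49%, 3.65 to 8.17), 11.6% of other lowest-list genes (10.3 to 13.1) and 7.21% of all genes. Of the 441 lowest-list genes at 200 to 500 kb, 24 were members (5.44%, 3.68 to 7.97), and of the 341 at 1500 to 2000 kb, 98 (28.7%, 24.2 to 33.8). The share did not change evenly along the way, with 10.5% in the 105 lowest-list genes nearest an end, under 100 kb (5.95 to 17.8), and 23.8% in the 530 beyond 2000 kb (20.3 to 27.6). Of the genes of the other 3 lists, 19.6% lay between well-expressed neighbours under 100 kb, 14.8% at 100 to 200 kb, 19.0% at 200 to 500 kb, 35.9% at 1500 to 2000 kb and 35.3% beyond.

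**Figure D4:**
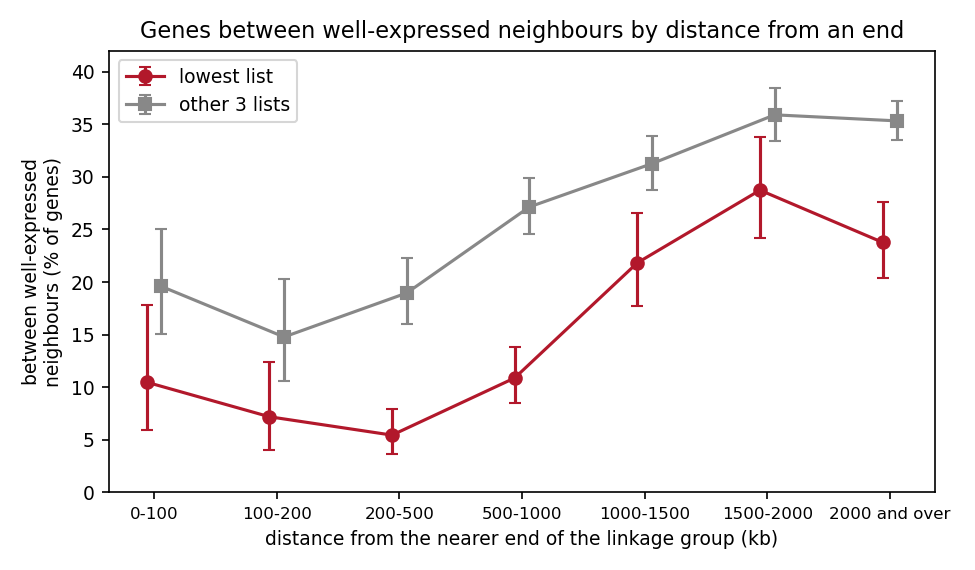
Share of genes lying between well-expressed neighbours (y axis, %) by distance from the nearer end of the linkage group (x axis, kb), for the lowest list and for the other 3 lists together, with Wilson 95% intervals. The lowest list is at 5.44% at 200 to 500 kb and at 28.7% at 1500 to 2000 kb, below the other lists throughout.

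The members nearest an end were NCU09636 on IV (6446 to 8374), NCU07140 on VI (9191 to 11740) and NCU09494 on II (4466318 to 4468439), at 5.84, 9.19 and 9.96 kb. All 3 lay outside domains, at 4.05, 7.39 and 1.56 kb from the nearest. NCU09494 was next to set-6 of the 50-75% list. By linkage group, members made up 22.2% of the lowest list on I (105 of 472, 18.7 to 26.2) and 12.8% on VII (43 of 337, 9.61 to 16.7), with the other 5 between 13.8% and 17.2%. The lowest list itself made up 20.1% of the genes of I and 32.2% of those of VII.

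The distance of members from heterochromatin could not be told apart from that of other lowest-list genes within the error of the medians. The same held against genes of the other lists between well-expressed neighbours. The median distance to the nearest H3K9me3 domain was 37.9 kb in members (30.8 to 47.5), against 31.8 kb in other lowest-list genes (29.5 to 34.1), intervals that overlap. It was 34.3 kb in lowest-list genes with 1 well-expressed neighbour and 30.3 kb in those with none. Between well-expressed neighbours the medians were 45.8 (40.0 to 52.1), 46.5 (40.7 to 51.1) and 49.2 kb (44.1 to 54.4) for the 25-50%, 50-75% and highest lists. The first 2 medians lay inside the members' interval and the third above it, and all 3 intervals overlapped that of the members. Genes of the 25-50% list with neither neighbour well expressed had a median of 32.0 kb. The difference of medians between members and other lowest-list genes was 6.09 kb, and it was 3.09 kb without linkage group I and 19.8 kb with domains of 15 kb or more alone. On I the medians were 63.5 kb in members and 52.7 kb in the others, and on II, VI and VII the median of members was the lower one.

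**Figure D5:**
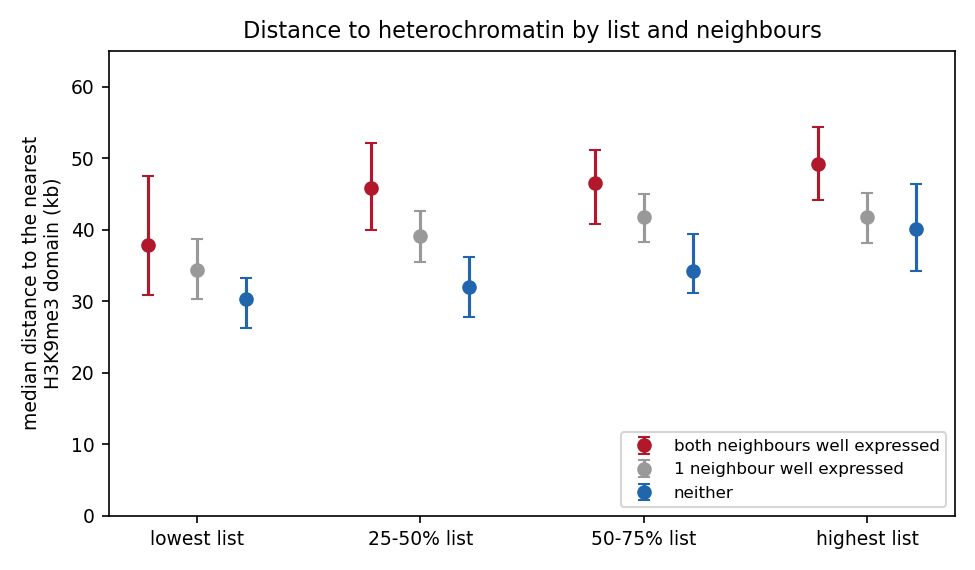
Distance between genes and their nearest H3K9me3 domain (y axis, median in kb) for each expression list (x axis) and for genes with both, 1 or neither neighbour well expressed, with the order-statistic 95% interval of the median. In the lowest list the medians are 37.9, 34.3 and 30.3 kb, and in the 25-50% list genes with both neighbours well expressed are at 45.8 kb.

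The members farthest from a domain were NCU02944 and NCU02953 on I (8622873 to 8624884 and 8603407 to 8603922), at 329.7 and 310.2 kb, and NCU02562 on I (2741625 to 2743164), at 318.9 kb. Under 5 kb from a domain without touching it lay 43 members (10.7%, 8.06 to 14.1), 11.9% of other lowest-list genes and 9.65% of all genes.

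A domain touched 9 members (2.24%, 1.19 to 4.21), against 2.76% of other lowest-list genes (2.13 to 3.56) and 2.17% of all genes. At least 50% of the interval was covered in 5 members (1.25%, 0.534 to 2.89), in 1.18% of other lowest-list genes (0.795 to 1.75) and in 0.534% of all genes. These 5 were all in the block of 440 rows at the end of the lowest list, while the 4 with less coverage stood in rows 3 to 1036. Of all 9 members that a domain touched, by at least 1 bp, 5 were thus in that block. Of the 56 other lowest-list genes touched by at least 1 bp, 12 were in the block, which held 18.5% of all other lowest-list genes. The number in the block was not counted for the 24 other lowest-list genes with at least 50% coverage. The row belongs to the ranking that chose the members, so this is a description.

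In the 5 mostly covered members the well-expressed neighbours lay across or beyond the edges of the member's domain, some of them mostly inside it. NCU04974 on IV (994038 to 994787) lay in a domain of 216.9 kb, with NCU04963 and NCU04983 of the highest list at gaps of 119.6 and 93.8 kb. The same domain held 2350 of the 2367 bp of NCU04963 and 430 of the 1460 bp of NCU04983. NCU08585 on I (3819644 to 3819946) lay in a domain of 206.1 kb, with gaps of 84.8 and 152.7 kb. Its previous gene, NCU08579 of the 50-75% list, had 2216 of its 2673 bp in that domain. Its next gene, NCU09892 of the highest list, lay completely inside another domain of 45.3 kb. The domains of NCU04974 and NCU08585 are the longest of IV and I, and the genes there are neighbours by order and not by closeness. NCU10702 on I (6319360 to 6320600) lay in a domain of 35.4 kb that ended 155 and 120 bp from its neighbours. NCU10906 on III (4094261 to 4095162) lay in one of 22.8 kb, with neighbours 1724 and 2110 bp outside it. NCU02350 on VII (2796718 to 2797558) was covered over 78.2% by a domain of 14.1 kb that ended 31 bp from rpn-12, a proteasome subunit gene in row 38 of the 50-75% list.

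The other 4 were touched at an edge. NCU04850 on VI shared 360 bp with a domain, NCU06080 on VII 83 bp, NCU03847 on VI 42 bp and NCU10027 on I 4 bp. The lengths of 337 of the 346 domains are multiples of 300 bp, and the last 3 overlaps are shorter than 1 such step. NCU04850 was next to cdc28, at a gap of 19.2 kb across the same domain, which reached 216 bp into cdc28.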

How the data were processed

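Per the labels' protocols the libraries are chromatin immunoprecipitations of FLAG-tagged H3. Tools named in the submitters' processing notes are SICER, HOMER, Bowtie2 and deepTools, and the sources used here give no versions, settings or genome build. The authors deposited 4 lists of gene intervals ranked on wild-type expression and a list of H3K9me3 domains of the wild type. Positions in these lists, in bp, are the values used. The sources used here do not say how expression was measured. None of the 10 labelled libraries is labelled as a measurement of expression or of H3K9me3. The culture conditions given above are those of the FLAG libraries. Positions are printed counting from 1, and the domain list has 10 empty rows.

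Genes were named by equal position in the RefSeq table of the NC12 assembly (9490 genes), or by the mirrored position in 1 segment of VI that is inverted against it (238 genes, 18 of them members). One interval, not a member, stayed unnamed. Coordinates are those of the files. A gap is the distance between intervals, negative where they overlap. For a gene that lies inside a neighbour, the gap on its other side can run through the rest of that neighbour. The end of a linkage group is that of its outermost gene or domain.

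The members, gene lists and alternatives were chosen with earlier results of these data known. No test was run, since the files hold no values per library and genes are not replicates. Shares have Wilson 95% intervals, and medians an order-statistic 95% interval, computed with scipy 1.17.1 and pandas 2.3.3 in Python 3.11.15. The computation of neighbours and distances was tested on simulated data. Named genes were the 3 longest, shortest, widest-spaced, most overlapped, nearest an end, farthest from a domain and with the longest stretch of well-expressed genes around them, the 8 with most domain sequence and the members of the symbol lists. The ninth member touching a domain, and members named for their symbol, their neighbours or for lying inside a neighbour, were chosen after their values were seen. Transcript orientation and product descriptions, planned for comparison, and sequences were not used here.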

Additional observations from a re-analysis of the deposited data

How the results depend on the processing

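Of 127 recomputed values, 108 stayed close to the value reported, 15 moved further and 4 changed sign. Close means inside the 95% interval for a median or share, within 1.5 times for the number of members, and, for a difference of medians, which has no interval of its own, within 0.5 of the width of the interval of the members' median. The 401 members fell to 104 with both neighbours from the highest list and to 91 with both from the 50-75% list, since these are parts of the members. Median length was 1097.5 bp and 1378 bp in these parts, and 1335 bp without the block of 440 rows. The share overlapping a neighbour was 12.1% with both neighbours from the 50-75% list and 15.7% without locus tags of NCU10000 and above. That setting leaves these genes out before neighbours are found, so it draws a new set of 345 members with other neighbours. The median smaller gap was 620 bp in that new set and 642 bp without overlapping members, and its difference from other lowest-list genes was -115 bp in the new set, against -226 bp. The difference in length, -9 bp, was within the error of the median. It was -126.5 bp with both neighbours from the highest list and changed sign to 23 bp against lowest-list genes with no well-expressed neighbour, 50 bp without tags of NCU10000 and above, 4 bp without linkage group I and 25 bp without IV; the cause was not tested. The median distance to an end was 1500 kb (1499.9) without I, and its difference was 967 kb against lowest-list genes with no well-expressed neighbour. The difference in domain distance was 19.8 kb with domains of 15 kb or more, against 6.09 kb, and between 3.09 and 19.8 kb over its 13 alternatives. With intervals widened by 1 kb, 4.74% of members touched a domain. The settings without the block of 440 rows, without overlapping members and for long members were chosen after seeing the data.

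No paired analysis was possible because the deposited lists hold no values per library. Without replicate values, strand or expression values, the lists cannot show how far below its neighbours a member is expressed.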
